A study of Mus musculus with 22 samples.

Results

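Zinc finger protein genes, whose mouse symbols start with Zfp, encode one of the broadest classes of DNA-binding proteins in the mouse. Here they were described by how open the chromatin near them was in hepatocyte nuclei of mice with steatohepatitis. A gene was a member if its symbol was Zfp followed by a number and at most 1 letter, and if it had at least 1 peak of open chromatin within 50 kb of its transcription start. This rule held for 311 of the 15686 genes with a peak within 50 kb, and these members carried 819 of the 56777 peaks inside that distance. The rule used gene symbols and the positions of peaks, and no count or change between groups was read for it. The peaks are the set deposited with these libraries, however. A gene could thus become a member through a peak that was open mainly in advanced livers. It was set with earlier results of these data known.

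The assay was ATAC-seq, in which a transposase cuts and tags accessible DNA. Nuclei were immunoprecipitated from the livers of male HEP-INTACT mice, in which hepatocyte nuclei carry a tag. The FPC groups were FPC advanced (3 libraries), FPC mild (4) and FPC control (4), all after 20 weeks. FPC is a diet rich in fructose, palmitate and cholesterol, and its controls ate a low fat diet. The other diet, CDAHFD, lacks choline, has defined amino acids and is high in fat. It was given for 7 weeks to the CDAHFD advanced (3) and CDAHFD mild (4) groups, while 4 CDAHFD control mice ate low fat food over those weeks. The submitters split the diet-fed mice by liver histology: mild and advanced livers both had steatosis and inflammation, and significant fibrosis was seen in the advanced ones only. Each of the 22 libraries came from a different mouse. No source used here gives the driver of the nuclear tag, the strain or the age of the mice.

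Most Zfp proteins carry arrays of C2H2 fingers, small zinc-binding loops that each read a few DNA bases. Many also carry a KRAB domain, which recruits the corepressor Trim28 (KAP1), the histone methyltransferase Setdb1 and HP1 proteins, and through them silences retroelements and some imprinted genes. KRAB members arose by repeated duplication and sit side by side in clusters, in mouse mostly on a few chromosomes. The series also holds proteins of other kinds, among them Zfp36 (tristetraprolin), a CCCH finger protein that binds AU-rich elements and speeds mRNA decay, and Zfp185, a LIM-domain protein of the actin cytoskeleton. The values below are ATAC-seq counts near these genes. They do not measure RNA or protein, and a peak was given to the gene with the nearest start, which need not be the gene it acts on.

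Hepatocyte markers were the most open of the 6 marker lists in every group, and their sums moved with the groups. The 14 markers of hepatocytes, all measured, summed to 2577 to 2961 CPM (counts per 1e+06 scaled counts) in FPC advanced livers, against 3445 to 3550 CPM in FPC controls, and to 2849 to 3040 CPM in CDAHFD advanced livers, against 3316 to 3590 CPM in CDAHFD controls. Of 12 cholangiocyte markers, 10 were measured. They summed to 466.8 to 608.4 CPM in FPC advanced livers against 277.5 to 296.1 CPM in FPC controls, and to 404.7 to 444.6 CPM in CDAHFD advanced livers against 268.6 to 327.4 CPM in CDAHFD controls. For stellate cells 2 of 12 markers had a peak, and they summed to 47.14 to 65.3 CPM in FPC advanced livers against 26.88 to 43.78 CPM in FPC controls, and to 44.75 to 57.35 CPM in CDAHFD advanced livers against 37.62 to 50.8 CPM in CDAHFD controls. The 9 of 12 endothelial markers measured summed to 251.9 to 264.5 CPM in FPC advanced livers against 234.5 to 242 CPM in FPC controls, and to 258.3 to 303.7 CPM in CDAHFD advanced livers against 270.6 to 302.3 CPM in CDAHFD controls. The 4 of 13 lymphocyte markers summed to 218.1 to 232.5 CPM in FPC advanced livers against 248.9 to 285 CPM in FPC controls, and to 232.8 to 249.6 CPM in CDAHFD advanced livers against 268 to 307.3 CPM in CDAHFD controls. For macrophages, 5 of 12 markers summed to 71.35 to 73.11 CPM in FPC advanced livers against 74.16 to 83.34 CPM in FPC controls, and to 78.04 to 82.97 CPM in CDAHFD advanced livers against 90.87 to 101.3 CPM in CDAHFD controls. Among these 4 lists, advanced and control sums overlapped for stellate and endothelial markers in CDAHFD and stood apart otherwise. In FPC advanced livers, 3 macrophage markers were called higher and 2 lower, and 2 endothelial ones higher and 3 lower. These sums thus moved against most of their called markers. For CDAHFD the calls were 1 higher and 2 lower, and 2 higher and 4 lower. Over all genes, 30.7% were higher and 30.5% lower in FPC, and 28.5% and 30% in CDAHFD advanced livers. A change in the mix of nuclei and a change within each nucleus cannot be told apart in these bulk libraries, and the part of either in the results below was not tested. Libraries held 3790000 to 9330000 counts.

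The promoters of 6 members follow as examples, chosen for the smallest adjusted p of their promoter sums. The first 3 promoters opened and the others closed in both advanced groups. They are the RefSeq windows of 250 bases just before the outermost annotated start, build GRCm38.p6, written 5′ to 3′ on the strand of the gene. Capitals mark matches to motifs searched on both strands: the ETS core CCGGAA (or TTCCGG), the GC box GGGCGG (or CCGCCC), the CCAAT box CCAAT (or ATTGG), the NRF1 core GCATGCGC, the cyclic AMP element TGACGTCA and the TATA box TATAAA.
Zfp202: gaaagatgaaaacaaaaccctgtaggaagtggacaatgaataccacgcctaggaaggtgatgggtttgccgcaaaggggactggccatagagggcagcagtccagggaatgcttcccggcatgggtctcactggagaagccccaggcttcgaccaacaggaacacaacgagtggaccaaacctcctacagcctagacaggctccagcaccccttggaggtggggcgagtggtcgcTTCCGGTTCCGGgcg
Zfp579: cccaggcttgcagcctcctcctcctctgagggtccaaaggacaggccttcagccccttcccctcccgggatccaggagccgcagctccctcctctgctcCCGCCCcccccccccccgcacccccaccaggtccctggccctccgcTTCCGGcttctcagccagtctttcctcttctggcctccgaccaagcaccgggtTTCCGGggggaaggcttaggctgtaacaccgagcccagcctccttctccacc
Zfp82: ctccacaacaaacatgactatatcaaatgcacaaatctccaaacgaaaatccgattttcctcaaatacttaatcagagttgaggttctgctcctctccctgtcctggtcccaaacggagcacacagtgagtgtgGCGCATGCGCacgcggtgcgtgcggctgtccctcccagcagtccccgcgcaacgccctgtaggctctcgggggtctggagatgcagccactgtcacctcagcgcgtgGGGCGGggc
Zfp872: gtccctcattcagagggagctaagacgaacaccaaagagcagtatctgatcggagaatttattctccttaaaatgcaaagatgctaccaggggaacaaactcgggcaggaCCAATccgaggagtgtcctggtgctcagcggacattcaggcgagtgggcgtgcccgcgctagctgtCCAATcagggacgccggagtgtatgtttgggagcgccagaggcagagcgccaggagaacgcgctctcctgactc
Zfp874a: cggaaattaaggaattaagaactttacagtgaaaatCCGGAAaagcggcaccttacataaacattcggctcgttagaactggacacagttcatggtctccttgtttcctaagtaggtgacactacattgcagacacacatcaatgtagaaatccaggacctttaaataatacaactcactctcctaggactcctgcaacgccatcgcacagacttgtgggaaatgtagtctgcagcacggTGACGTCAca
Zfp273: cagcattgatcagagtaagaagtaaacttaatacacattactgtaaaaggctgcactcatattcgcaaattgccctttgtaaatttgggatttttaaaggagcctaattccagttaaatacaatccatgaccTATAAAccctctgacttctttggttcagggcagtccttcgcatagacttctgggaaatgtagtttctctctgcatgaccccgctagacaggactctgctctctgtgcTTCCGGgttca

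The window of Zfp202 lies at chr9:40192066-40192315 on the plus strand and ends in 2 ETS cores side by side just before the start. The Zfp579 window, chr7:4996102-4996351 on the minus strand, has 2 ETS cores and 1 GC box. That of Zfp82, chr7:30072824-30073073 on the minus strand, has 1 GC box and an NRF1 core that reads as a match on both strands. In the Zfp872 window, chr9:22187916-22188165 on the plus strand, there are 2 CCAAT boxes. The Zfp874a window, chr13:67451625-67451874 on the minus strand, has an ETS core and ends in a cyclic AMP element. The Zfp273 window, chr13:67813566-67813815 on the plus strand, has a TATA box and, just before the start, an ETS core. Counts summed over peaks within 1 kb of the start changed by 1.01, 1.24 and 1.17 on the log2 scale for Zfp202, Zfp579 and Zfp82 in FPC advanced against FPC control livers. The same promoter sums changed by -1.23, -0.52 and -0.47 for Zfp872, Zfp874a and Zfp273. In CDAHFD advanced against CDAHFD control livers the 6 promoter changes were 0.64, 0.90, 0.84, -1.44, -0.53 and -0.53 in the same order of genes. Summed over all its peaks, Zfp872 changed by less: -0.37 in FPC advanced livers, a call lost without FPC control 1 (adjusted p = 0.0584). In CDAHFD advanced livers that sum changed by -0.22, not called.

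Across the members, promoter windows were rich in ETS cores. Of 321 windows of 300 bases (250 before and 50 after the start) from 259 members, 34.6% held CCGGAA, against 14.9% of 32851 windows of all genes. Among windows that overlapped a peak, the shares were 38.7% of 274 member windows and 29.9% of 11911 windows of all genes. The median CpG count was 15 in member windows and 7 in all windows, but among windows with a peak it was 16 in members and 22 in all. The GC box GGGCGG was in 44.5% of member windows and 35.7% of all, and in 45.6% and 66.6% of those with a peak. The core of the ZNF143 motif, ACTACAA, was in 7.17% of member windows against 3.24% of all, and in 8.39% against 4.41% of those with a peak. The cyclic AMP element was in 4.67% against 1.79%, and in 5.47% against 3.44% of windows with a peak. The gap was narrower in windows with a peak for the NRF1 core (5.3% against 2.71%, and 6.2% against 5.79% with a peak), for AAGATGGC of YY1 (5.61% against 2.75%, and 6.2% against 4.79%) and for TATAAA (7.17% against 13.6%, and 5.11% against 6.58%). The AP-1 motif TGANTCA was in 3.43% of member windows against 7.81% of all, and in 2.55% against 4.78% of those with a peak. For CCAAT the shares were 43.3% against 37.4%, and 45.3% against 39.4% with a peak, and for the E-box CACGTG 6.23% against 7.15%, and 5.84% against 10.8%. Of 98 members with the ETS core, 31.6% were higher and 15.3% lower in FPC advanced livers, and of 161 without it, 33.5% were higher and 18.6% lower.

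Open chromatin of the members lay mainly at promoters. Of their 819 peaks, 59.6% were within 1 kb of a start, against 35.4% of the peaks of all genes, and 56.3% of members had promoter peaks only, against 29.7% of all genes. A promoter peak was present in 290 members, a more distant one in 136, and 21 members had none at the promoter. The median member had 2 peaks, as did the median gene of all, and 106 members had 1. The most peaks lay near Zfp395 (19), Zfp385b (17), Zfp608 (13) and Zfp619 (10, as many as Zfp750 and Zfp825). Per peak of 200 bases, the summed signal of the members had a median of 16.1 CPM, against 15.4 CPM over all genes. By summed signal Zfp395 (458 CPM, or 24.1 CPM per peak), Zfp78 (302 CPM, 75.4 per peak), Zfp619 (249.6 CPM, 24.96 per peak) and Zfp36 (229.5 CPM, 38.3 per peak) stood highest. Their log2 fold changes in the advanced groups lay between -0.36 (Zfp619 in CDAHFD) and 0.22 (Zfp36 in CDAHFD).

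In FPC advanced livers more members opened than closed. Of 311 members, 109 (35.0%) were higher and 53 (17%) lower than in FPC control livers, while 149 did not pass the test. Over all 15686 genes, 30.7% were higher and 30.5% lower. The median log2 fold change was 0.08 over members and 0.0079 over all genes. Libraries of both groups did not overlap for 101 members that were above and 54 that were below their controls (32.5% and 17.4%), against 29.6% and 28.8% of all genes. Changes over 2-fold were called in 16 members (5.14%), against 10.4% of all genes. Calls were at an adjusted p under 0.05 in edgeR's quasi-likelihood test, with Benjamini-Hochberg adjustment over all genes.

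In CDAHFD advanced livers the members split evenly. There 76 (24.4%) were higher and 75 (24.1%) lower than in CDAHFD control livers, against 28.5% and 30% of all genes, and 160 did not pass. The medians were -0.017 over members and -0.014 over all genes. Libraries stood apart for 77 members above and 76 below their controls, or 24.8% and 24.4%, against 27.2% and 28.4% of all genes. Changes over 2-fold were called in 10 members (3.22%), against 10.2% of all genes. With scale factors taken from all peaks instead of gene sums, the split became 138 higher and 31 lower in FPC advanced livers. In CDAHFD advanced livers it became 93 higher and 46 lower. All genes moved upwards as well, in both diets. In CDAHFD advanced livers 5248 of 15686 were higher and 3781 lower. Higher calls were 66.9% of the called members there, against 58.1% of all called genes. That scaling moved the median of all genes to 0.10 and that of the members to 0.18 in the FPC comparison. In the CDAHFD comparison it moved them to 0.051 and 0.049.

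**Figure D1:**
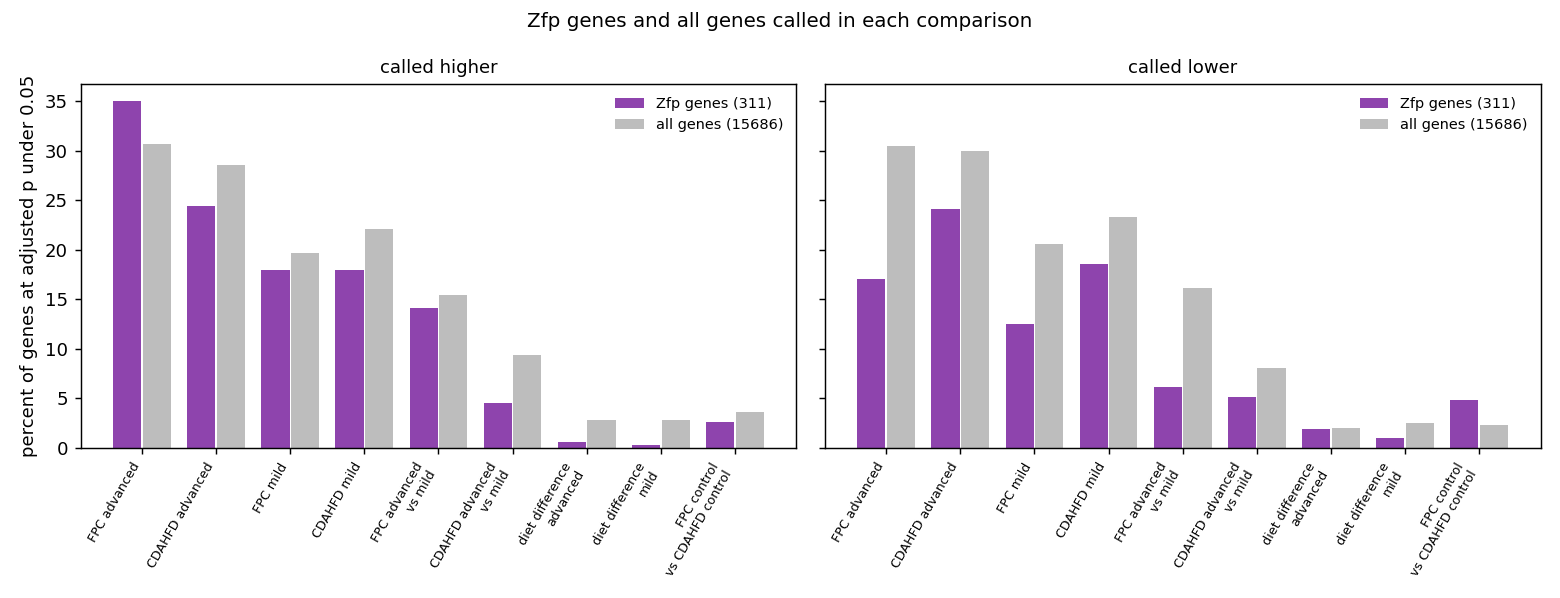
Share of Zfp genes and of all genes (percent, y axis) called higher (left) or lower (right) in each of the 9 comparisons of gene sums (x axis). In FPC advanced livers 35.0% of the Zfp genes were higher and 17% lower, and in CDAHFD advanced livers 24.4% and 24.1%.

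The members' share of all counts rose with the promoters' share. Zfp genes took 1.367, 1.413 and 1.397% of all counts in FPC advanced livers, against 1.260, 1.257, 1.268 and 1.246% in FPC control livers, with no overlap. In CDAHFD advanced livers they took 1.352, 1.365 and 1.326%, against 1.290, 1.299, 1.290 and 1.304% in CDAHFD controls. Each difference had a two-sided exact permutation p of 0.0286 (on the absolute difference of means), the smallest that these group sizes allow. By stage, the share was 1.258 ± 0.00911, 1.328 ± 0.0211 and 1.392 ± 0.0234% in FPC control, mild and advanced livers (SD, n = 4, 4 and 3), and 1.296 ± 0.00695, 1.329 ± 0.0160 and 1.348 ± 0.0199% in CDAHFD control, mild and advanced livers (SD, n = 4, 4 and 3). Over the whole genome, the mean count of a promoter peak was 2.086 ± 0.0412 times that of a peak elsewhere in FPC advanced and 1.720 ± 0.0516 in FPC control livers, and 1.964 ± 0.105 in CDAHFD advanced and 1.711 ± 0.0366 in CDAHFD control livers (exact permutation p = 0.0286 for both diets). Member peaks at promoters held 0.978 to 1.025% of counts in FPC advanced livers and 0.863 to 0.881% in FPC controls. Member peaks farther out held 0.380 to 0.404% in every library of the study. The part of the promoter ratio in the members' rise was not tested. Promoter sums were compared with promoter sums for this reason: of 290 members, 76 (26.2%) were higher and 50 (17.2%) lower in FPC advanced livers, against 25.7% and 26% of all promoters, and 66 (22.8%) higher and 70 (24.1%) lower in CDAHFD advanced livers, against 26.2% and 25.9%. For sums of distal peaks, 48 of 136 members were higher and 35 lower in FPC advanced livers, against 31.4% and 29.4% of all genes, and 42 higher and 50 lower in CDAHFD advanced livers, against 30.2% and 31.6%.

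**Figure D2:**
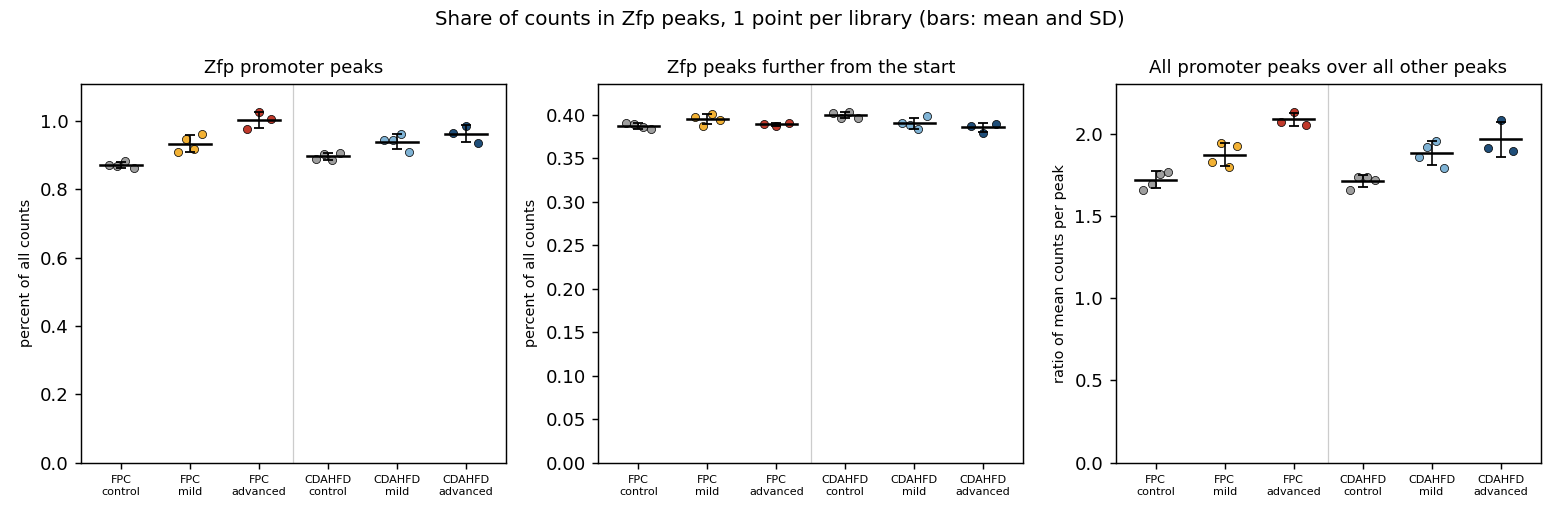
Percent of counts in Zfp promoter peaks and in Zfp distal peaks, and the ratio of mean counts per promoter peak to mean counts per other peak over the genome (y axes), per library (points, with group mean and SD) in control, mild and advanced livers of each diet (x axis). The Zfp promoter share sits at 0.978 to 1.025% in FPC advanced libraries and at 0.863 to 0.881% in FPC control libraries, while the distal share stays at 0.380 to 0.404%.

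Zfp202, Zfp605, Zfp248 and Zfp90 had the smallest p-values among members that opened in FPC advanced livers without overlap, and they were also higher in CDAHFD advanced livers, where Zfp605, Zfp831 and Zfp248 had the smallest. The human ortholog of Zfp202 is known as a repressor of genes of lipid metabolism. Zfp202 (chr9:40192316-40213604) had 58.4, 64.6 and 61.9 CPM in FPC advanced livers, against 30.2, 25.05, 24.5 and 26.3 CPM in FPC controls, a log2 fold change of 1.22 (SE 0.11, adjusted p = 2.24e-09). It had 41.9, 42.7 and 43.5 CPM in CDAHFD advanced livers, against 30.0, 24.0, 23.0 and 20.5 CPM in CDAHFD controls, a log2 fold change of 0.80 (SE 0.11, adjusted p = 8.06e-07). All advanced libraries stood above all controls, and each of its 5 peaks was higher in FPC advanced livers (4 of 5 in CDAHFD advanced livers), the one 3863 bases into the gene most: 2.44 and 1.60 on the log2 scale. Zfp605 (chr5:110110028-110131536), with 1 peak at its promoter, had 23.7, 26.8 and 20.9 CPM in FPC advanced livers, against 10.9, 11.4, 10.3 and 13.7 CPM in FPC controls (1.05 (SE 0.12, adjusted p = 9.71e-08)). Zfp605 had 27.5, 26.4 and 23.1 CPM in CDAHFD advanced livers, against 13.5, 11.5, 11.1 and 11.8 CPM in CDAHFD controls (1.10 (SE 0.11, adjusted p = 8.12e-09)). No advanced library of Zfp605 overlapped its controls, and the same was true of the 2 members that follow. Non-overlap in FPC was a condition for naming these members. Zfp248 (chr6:118427319-118455699), with 2 promoter peaks, had 15.6, 17.7 and 18.5 CPM in FPC advanced livers, against 4.61, 4.76, 5.52 and 7.47 CPM in FPC controls (1.63 (SE 0.17, adjusted p = 2.34e-08)). Its CDAHFD advanced values were 19.9, 20.8 and 15.5 CPM, against 9.48, 7.07, 6.82 and 9.03 CPM in CDAHFD controls (1.22 (SE 0.14, adjusted p = 1.36e-07)). Zfp90 (chr8:106415295-106426943) had 45.0, 57.6 and 53.2 CPM in FPC advanced livers, against 24.5, 26.6, 23.9 and 27.2 CPM in FPC controls (1.03 (SE 0.11, adjusted p = 1.38e-08)). Its CDAHFD advanced values were 40.0, 41.2 and 41.7 CPM, against 24.6, 25.1, 28.7 and 22.9 CPM in CDAHFD controls (0.69 (SE 0.10, adjusted p = 2.69e-06)).

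Of the 4 peaks of Zfp90, 2 upstream ones changed more on the log2 scale than the peak at its start. A peak 278 bases downstream of the start is also in the gene sum, and the part of each peak in the rise was not tested. A peak 15463 bases upstream, inside an ERVL-MaLR long terminal repeat (chr8:106399776-106399976, mm10), had 7.87 ± 2.58 CPM in FPC advanced livers and 0.525 ± 0.160 CPM in FPC controls (SD, n = 3 and 4), a log2 fold change of 3.92 (SE 0.44, adjusted p = 4.55e-08). In CDAHFD advanced livers its log2 fold change was 4.39 (SE 0.49, adjusted p = 2.53e-08). An intergenic peak 36752 bases upstream changed by 3.81 (SE 0.49, adjusted p = 3.73e-07) and 4.93 (SE 0.60, adjusted p = 9.15e-08) in the FPC and CDAHFD comparisons. The peak at the Zfp90 start itself changed by 0.37 (SE 0.12, adjusted p = 0.0130) in FPC advanced livers and by 0.067 (SE 0.11, adjusted p = 0.644) in CDAHFD advanced livers.

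Among the other members that opened, some started from few counts. Zfp831 had the largest fold change of all members in both diets, from a single peak 47719 bases upstream of its start in a SINE repeat. Zfp831 was a member through this peak alone, which had few counts in controls, so its membership and its rise are not independent. It had 32, 62 and 40 counts in FPC advanced libraries, against 2, 1, 4 and 3 counts in FPC control libraries, or 6.02, 9.64 and 7.10 CPM against 0.576, 0.317, 0.789 and 0.896 CPM. These libraries did not overlap, and the log2 fold change was 3.48 (SE 0.44, adjusted p = 3.48e-07). Zfp831 had 15.7, 13.2 and 11.7 CPM in CDAHFD advanced livers, against 2.71, 3.53, 0.7099 and 0.802 CPM in CDAHFD controls (2.82 (SE 0.28, adjusted p = 1.07e-08)). Zfp185, the LIM-domain member, had a log2 fold change of 1.72 (SE 0.21, adjusted p = 2.72e-07) in FPC advanced livers and 1.04 (SE 0.22, adjusted p = 2.18e-04) in CDAHFD advanced livers. Zfp579 changed by 1.34 and 0.95, Zfp647 by 0.93 and 0.69, and Zfp429 by 1.36 and 1.64 in the FPC and CDAHFD comparisons, with every call past the test. Zfp367 (0.30 and 0.43) and Zfp524 (0.37 and 0.41) rose by less from higher levels. The members called and over 2-fold higher in FPC advanced livers numbered 14, and were Zfp202, Zfp605, Zfp248, Zfp90, Zfp831, Zfp185, Zfp579, Zfp429, Zfp37, Zfp449, Zfp82, Zfp382, Zfp663 and Zfp791.

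**Figure D3:**
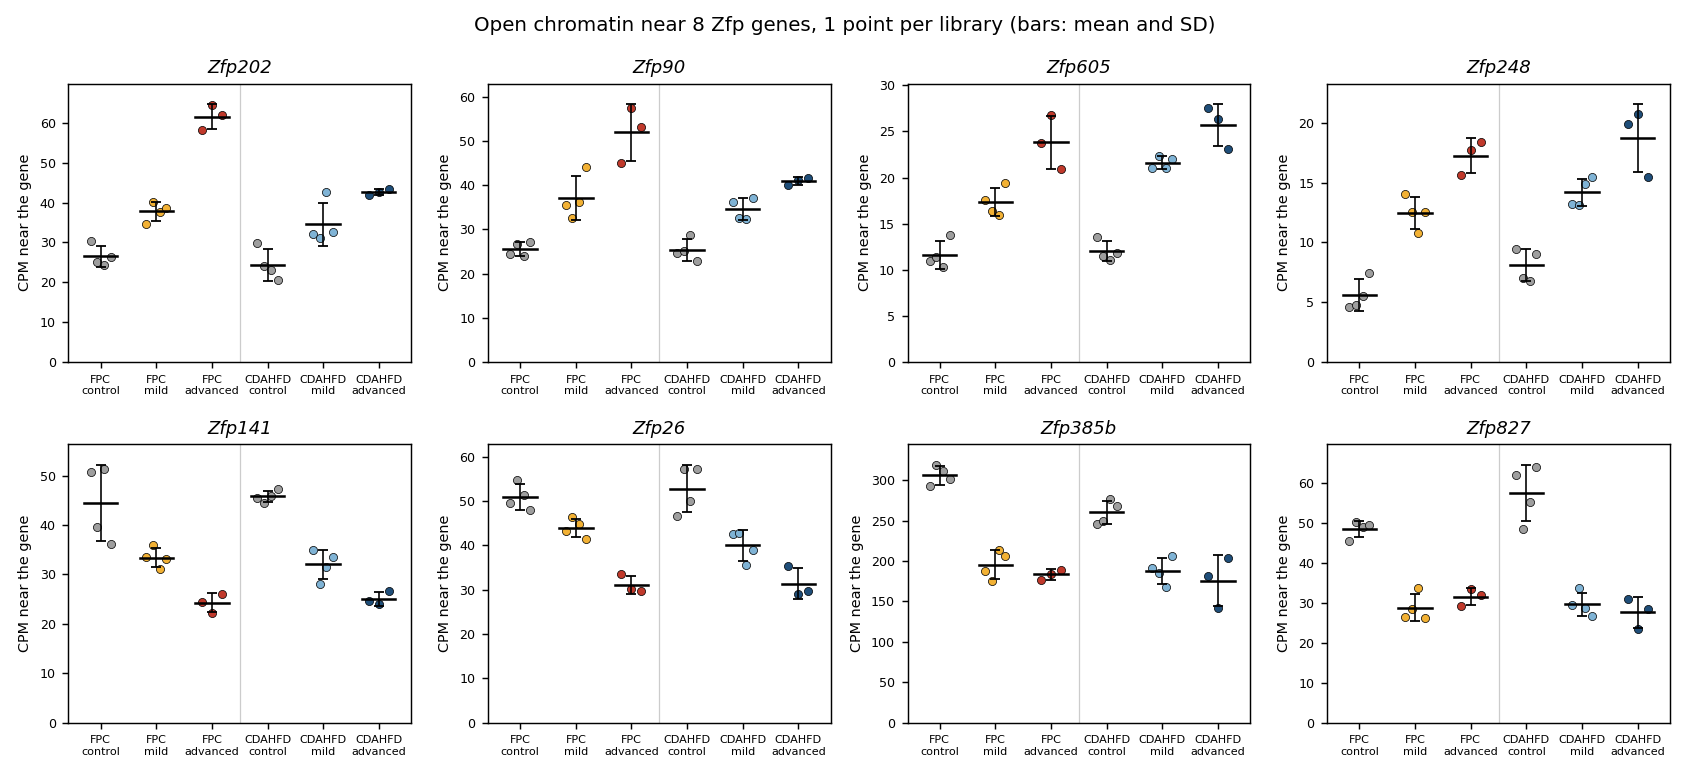
Summed CPM within 50 kb of the start (y axes) of Zfp202, Zfp90, Zfp605, Zfp248, Zfp141, Zfp26, Zfp385b and Zfp827 per library (points, with group mean and SD) in control, mild and advanced livers of both diets. Advanced libraries lie above all controls in the first 4 genes and below all controls in the other 4. All were chosen among members without overlapping libraries in at least 1 diet.

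Zfp141, Zfp385b, Zfp292 and Zfp26 had the smallest p-values among members that closed in FPC advanced livers without overlap. They were also lower in CDAHFD advanced livers, where Zfp827 and Zfp385a had the smallest. Zfp141 (chr7:42473386-42505778) had 24.5, 22.2 and 26.1 CPM in FPC advanced livers, against 50.7, 39.6, 51.3 and 36.1 CPM in FPC controls (-0.89 (SE 0.11, adjusted p = 2.01e-07)). Zfp141 had 24.6, 23.9 and 26.6 CPM in CDAHFD advanced livers, against 45.4, 44.5, 45.9 and 47.3 CPM in CDAHFD controls (-0.87 (SE 0.10, adjusted p = 9.79e-08)). Both its promoter peak (-0.53 and -0.56) and a peak in a LINE element in its intron 2 (-1.53 and -1.86) fell in the FPC and CDAHFD comparisons. Zfp385b (chr2:77410622-77817706), a relative of the p53 cofactor Zfp385a, had 177, 184 and 189.5 CPM in FPC advanced livers, against 292, 319, 311 and 302 CPM in FPC controls (-0.74 (SE 0.089, adjusted p = 1.95e-07)). Zfp385b had 182, 142 and 204 CPM in CDAHFD advanced livers, against 246, 250.1, 277 and 269 CPM in CDAHFD controls (-0.56 (SE 0.088, adjusted p = 7.09e-06)). Of its 17 peaks, 10 were lower and 1 higher in FPC advanced livers, and 9 were lower and 1 higher in CDAHFD advanced livers. Zfp292 (chr4:34803110-34882983) had 63.1, 63.8 and 58.6 CPM in FPC advanced livers, against 94.5, 94.2, 100.2 and 102 CPM in FPC controls (-0.66 (SE 0.088, adjusted p = 7.51e-07)). Its CDAHFD advanced values were 63.4, 58.5 and 66.1 CPM, against 87.7, 91.0, 90.7 and 68.4 CPM in CDAHFD controls (-0.43 (SE 0.085, adjusted p = 1.17e-04)). The libraries of Zfp141, Zfp385b and Zfp292 did not overlap between advanced and control livers in either diet, which their choice required in FPC.

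Zfp26 and Zfp827 closed at intronic peaks. Zfp26 (chr9:20428318-20460169) had 33.5, 30.2 and 29.8 CPM in FPC advanced livers, against 49.5, 54.9, 51.5 and 48.1 CPM in FPC controls (-0.71 (SE 0.095, adjusted p = 7.71e-07)). It had 35.4, 29.1 and 29.7 CPM in CDAHFD advanced livers, against 46.7, 57.2, 50.0 and 57.4 CPM in CDAHFD controls (-0.74 (SE 0.089, adjusted p = 1.73e-07)). Its peak in an ERVL-MaLR long terminal repeat in intron 5 of 9 (chr9:20443462-20443662) carried the fall, with 13.5, 9.40 and 7.80 CPM in FPC advanced livers against 24.2, 28.6, 24.9 and 22.3 CPM in FPC controls, and log2 fold changes of -1.29 in FPC and -1.25 in CDAHFD advanced livers. The Zfp26 promoter sum changed by -0.21 (SE 0.10, adjusted p = 0.102) in FPC and -0.15 (SE 0.093, adjusted p = 0.216) in CDAHFD advanced livers, and with peaks within 10 kb only, neither call of the gene sum was made. Zfp827 (chr8:79027486-79193768), whose human ortholog recruits the NuRD complex to telomeres in some cells, had 29.2, 33.4 and 31.9 CPM in FPC advanced livers, against 45.5, 50.1, 48.9 and 49.3 CPM in FPC controls (-0.62 (SE 0.11, adjusted p = 4.27e-05)). Zfp827 had 31.0, 23.4 and 28.3 CPM in CDAHFD advanced livers, against 61.8, 48.4, 55.2 and 64.0 CPM in CDAHFD controls (-1.04 (SE 0.10, adjusted p = 1.05e-08)). It had no promoter peak, and its 3 peaks lay 20381, 46004 and 46754 bases into the gene. All advanced libraries of both members lay below all their controls, which their choice required in at least 1 diet.

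Zfp385c had the deepest fall of all members in both diets, -1.50 (SE 0.21, adjusted p = 1.11e-06) in FPC and -1.62 (SE 0.20, adjusted p = 2.27e-07) in CDAHFD advanced livers, from 1 distal peak. Zfp352 changed by -1.11 and -0.79, Zfp648 by -0.96 and -1.04, Zfp619 by -0.31 and -0.36, Zfp266 by -0.45 and -0.44, and Zfp825 by -0.40 and -0.43 in FPC and CDAHFD advanced livers, all called. With peaks within 10 kb only, the CDAHFD call of Zfp266 was lost (-0.15, adjusted p = 0.151), as were both calls of Zfp825 (-0.24, adjusted p = 0.0893 in FPC and -0.22, adjusted p = 0.0930 in CDAHFD). Zfp956 was called in FPC advanced livers (-0.38) and not in CDAHFD advanced livers (-0.13). Zfp572, a pseudogene in the annotation, was called in CDAHFD advanced livers (-0.82) and not in FPC advanced livers (-0.26). Zfp874b (-0.62 and -0.52) and Zfp874a (-0.42 and -0.49) fell side by side. They are close copies, and no source used here says how reads matching both were counted, so their separate values are uncertain. The same holds for other near-identical members such as Zfp729a and Zfp729b.

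The diets, which have separate controls, shared much of their calls. Of the 109 members higher in FPC advanced livers, 64 (58.7%) were also higher in CDAHFD advanced livers, and these made up 84.2% of the 76 higher there. Over all genes the shares were 72.5% and 78.2%. Of the 53 members lower in FPC advanced livers, 38 (71.7%) were also lower in CDAHFD advanced livers, or 50.7% of the 75 lower there, against 75.9% and 77% over all genes. The 2 members called in opposite directions were Zfp512, with 0.26 in FPC and -0.30 in CDAHFD advanced livers, and Zfp869, with -0.15 and 0.33. The FPC call of Zfp512 was lost without FPC control 2 or 4 or FPC advanced 2 or 3, its CDAHFD call without CDAHFD control 3 or CDAHFD advanced 3, and the FPC call of Zfp869 without FPC control 2 or 4 or FPC advanced 1 or 3. A call in 1 diet and not in the other is no test of a difference between them, which follows.

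**Figure D4:**
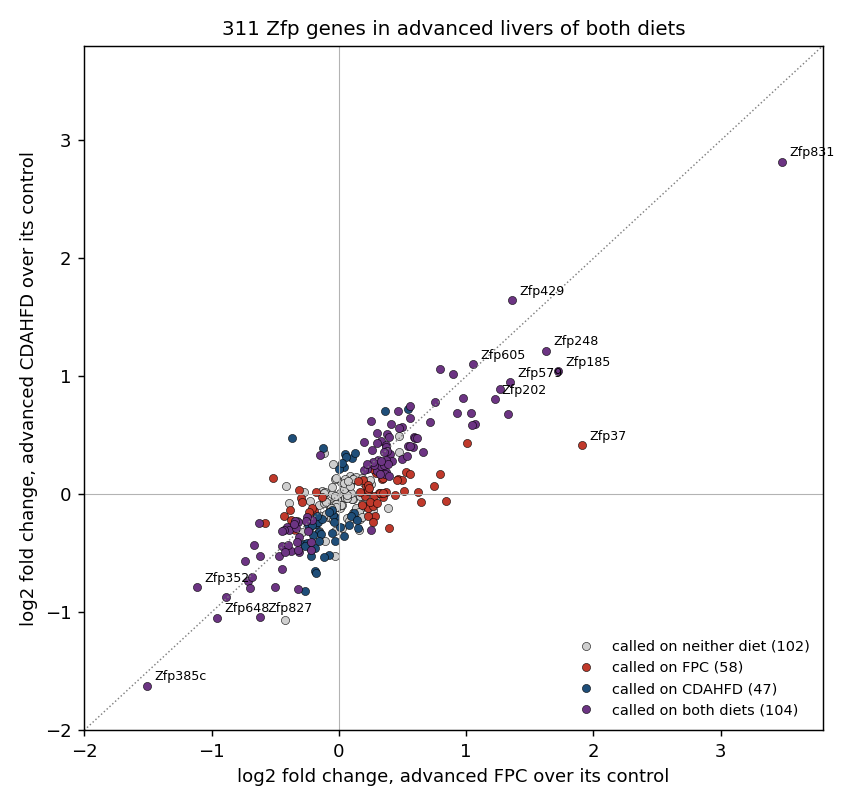
Log2 fold change of each of 311 Zfp genes in FPC advanced against FPC control livers (x axis) and in CDAHFD advanced against CDAHFD control livers (y axis), coloured by call. 104 genes were called in both diets, 58 in FPC only, 47 in CDAHFD only and 102 in neither.

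The test of the difference between diets called few members. It compared the CDAHFD change with the FPC change, and 2 members changed more upwards in CDAHFD advanced livers and 6 more downwards, or 0.643% and 1.93%, against 2.81% and 1.99% of all genes. Zfp869 had 127, 131 and 126 CPM in CDAHFD advanced livers against 104, 95.0, 103 and 103 CPM in CDAHFD controls, and 121, 126 and 117 CPM in FPC advanced livers against 128, 136, 132 and 144 CPM in FPC controls. The difference of its changes was 0.48 (SE 0.075, adjusted p = 7.64e-04), and its libraries lay above the controls in CDAHFD and below them in FPC. Zfp12 had 26.8, 27.3 and 27.0 CPM in CDAHFD advanced livers against 28.1, 25.8, 27.3 and 25.3 CPM in CDAHFD controls, and 29.4, 32.5 and 29.6 CPM in FPC advanced livers against 21.0, 20.9, 19.5 and 18.2 CPM in FPC controls. Its advanced libraries overlapped the controls in CDAHFD and stood above them in FPC, with a difference of -0.60 (SE 0.12, adjusted p = 0.00529). Zfp37 had 6.27, 7.61 and 6.52 CPM in CDAHFD advanced livers against 7.11, 4.42, 4.26 and 4.41 CPM in CDAHFD controls, and 11.1, 13.4 and 8.52 CPM in FPC advanced livers against 2.59, 1.90, 2.76 and 4.48 CPM in FPC controls, a difference of -1.49 (SE 0.34, adjusted p = 0.0128) at low counts. The differences were 0.84 for Zfp770, -0.56 for Zfp512, -0.72 for Zfp773, -0.30 for Zfp180 and -0.35 for Zfp566, the last 2 falling outside the 4 smallest p-values per direction and named to complete the count. For 5 of the 6 members with a lower difference, the call was made in FPC advanced livers and not in CDAHFD advanced livers, and Zfp512 was called in both.

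At the mild stage fewer members passed. In FPC mild livers 56 members (18%) were higher and 39 (12.5%) lower than in FPC controls, against 19.7% and 20.6% of all genes. In CDAHFD mild livers 56 (18%) were higher and 58 (18.6%) lower than in CDAHFD controls, against 22.1% and 23.3% of all genes. Zfp202 had 34.6, 40.2, 37.8 and 38.8 CPM in FPC mild and 32.1, 31.0, 42.6 and 32.7 CPM in CDAHFD mild livers, which puts it between control and advanced livers in FPC, with no overlap on either side. Zfp141 had 33.4, 35.9, 31.2 and 33.1 CPM in FPC mild and 34.9, 28.1, 31.4 and 33.6 CPM in CDAHFD mild livers, again between both other stages without overlap. Zfp827 had 26.5, 28.5, 33.6 and 26.2 CPM in FPC mild and 29.4, 33.6, 28.7 and 26.6 CPM in CDAHFD mild livers, which overlapped the advanced values in both diets. Zfp385b likewise overlapped, with 188, 175, 214 and 206 CPM in FPC mild and 191, 185, 168 and 207 CPM in CDAHFD mild livers. The difference between diets at the mild stage was called for 1 member upwards in CDAHFD (0.322%) and 3 downwards (0.965%), against 2.78% and 2.5% of all genes. These were Zfp869 (0.43), Zfp180 (-0.32), Zfp507 (-0.44) and Zfp512 (-0.46).

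Advanced livers were also set against mild ones. In FPC advanced livers 44 members (14.1%) were higher and 19 (6.11%) lower than in FPC mild livers, against 15.4% and 16.1% of all genes. Without FPC advanced replicate 2 the higher count was 25. Zfp202 was higher by 0.70 (SE 0.10, adjusted p = 1.31e-05), Zfp750 by 0.53 (SE 0.086, adjusted p = 4.94e-05), Zfp185 by 1.07 and Zfp831 by 1.82. Zfp26 (-0.50), Zfp423 (-0.55), Zfp872 (-0.56) and Zfp746 (-0.37) were lower. In CDAHFD advanced livers 14 members (4.5%) were higher and 16 (5.14%) lower than in CDAHFD mild livers, against 9.33% and 8.05% of all genes, and these counts ran from 5 to 14 and from 6 to 15 when 1 library was left out. Zfp568 (0.33 (SE 0.059, adjusted p = 4.33e-04)), Zfp831 (1.26), Zfp750 (0.39) and Zfp599 (0.91) were higher. Zfp354a (-0.81), Zfp874b (-0.35), Zfp467 (-0.32) and Zfp26 (-0.34) were lower. Zfp750, a regulator of epidermal differentiation, had 133, 136 and 144 CPM in FPC advanced livers against 101, 90.9, 91.1 and 98.7 CPM in FPC mild livers, without overlap. In CDAHFD it had 133, 148 and 138 CPM in advanced and 105, 98.8, 94.1 and 126 CPM in mild livers, also without overlap.

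The lists of genes by role were drawn up with earlier results of these data known. Of 8 genes listed for imprinting and retroelement silencing, 6 were measured. Of these, 1 was higher and 5 lower in FPC advanced livers, where 30.7% of all genes were higher and 30.5% lower. The median log2 fold change was -0.42 for the list and 0.0079 over all genes. There were 1 higher and 4 lower in CDAHFD advanced livers, against 28.5% and 30% of all genes, with a median of -0.29 against -0.014. Zfp462, which guards heterochromatin in embryonic stem cells, changed by -0.47 (SE 0.083, adjusted p = 3.89e-05) in FPC and -0.52 (SE 0.079, adjusted p = 4.64e-06) in CDAHFD advanced livers. Zfp708 changed by -0.43 (SE 0.077, adjusted p = 3.43e-05) and -0.30 (SE 0.072, adjusted p = 0.00109) in the same comparisons. Zfp445, which with Zfp57 protects imprinted methylation marks, changed by -0.41 (SE 0.13, adjusted p = 0.00970) in FPC advanced livers and by -0.28 (SE 0.12, adjusted p = 0.0454) in CDAHFD advanced livers, and the second call was lost without any 1 of CDAHFD control 2 or 3 or any CDAHFD advanced library (highest adjusted p = 0.242). Zfp819 changed by -0.69 and -0.80, and its FPC call was lost without FPC control 1 or FPC advanced 3 (highest adjusted p = 0.116). Zfp809, a silencer of retroviral DNA in stem cells, changed by -0.21 in FPC advanced livers, a call lost without FPC control 1 or 3 or FPC advanced 2 or 3 (highest adjusted p = 0.284), and by -0.12 in CDAHFD advanced livers with no call.

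Zfp568 was the higher one in both diets. This KRAB protein represses a placental Igf2 transcript in the mouse embryo. It had 82.5, 89.6 and 72.9 CPM in FPC advanced livers, against 61.4, 61.5, 62.3 and 67.8 CPM in FPC controls (0.37 (SE 0.065, adjusted p = 2.97e-05)). It had 93.7, 96.7 and 94.7 CPM in CDAHFD advanced livers, against 72.3, 75.4, 72.7 and 67.2 CPM in CDAHFD controls (0.40 (SE 0.060, adjusted p = 3.86e-06)). Advanced and control libraries did not overlap in either diet, and 4 of its 5 peaks were higher in FPC and 3 in CDAHFD advanced livers.

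Genes listed for the corepressor complex that KRAB proteins recruit and for heterochromatin more widely, none of them members, changed in both directions. Of 27 listed, 25 were measured, and 10 were higher and 6 lower in FPC advanced livers, against 30.7% and 30.5% of all genes. In CDAHFD advanced livers 11 were higher and 5 lower, against 28.5% and 30% of all genes. Their medians were 0.14 and 0.13. The genes that follow all rose in both diets and stand for the higher ones only, and the lower ones are not named. Dnmt1, the maintenance DNA methyltransferase, changed by 1.16 (SE 0.12, adjusted p = 1.31e-08) in FPC and 1.59 (SE 0.11, adjusted p = 1.74e-11) in CDAHFD advanced livers. Uhrf1, which brings Dnmt1 to replicated DNA, changed by 0.78 and 1.10, and the HP1 gene Cbx5 by 0.58 and 0.39. Sumo2 changed by 0.63 and 0.87. Trim28 itself changed by 0.38 (SE 0.077, adjusted p = 1.47e-04) and 0.20 (SE 0.074, adjusted p = 0.0231).

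RNA-binding members were mixed. Of 11 listed, 10 were measured, and 3 were higher and 1 lower in FPC advanced livers (30.7% and 30.5% of all genes) and 1 higher and 3 lower in CDAHFD advanced livers (28.5% and 30% of all genes), with medians of 0.033 and 0.019. Zfp385a, which steers p53 between target genes and binds RNA, had 52.5, 40.1 and 50.4 CPM in FPC advanced livers, against 68.9, 67.9, 69.8 and 61.8 CPM in FPC controls (-0.50 (SE 0.084, adjusted p = 1.82e-05)). Zfp385a had 40.0, 39.9 and 35.4 CPM in CDAHFD advanced livers, against 62.3, 64.6, 67.9 and 70.2 CPM in CDAHFD controls (-0.78 (SE 0.082, adjusted p = 1.78e-08)). Its libraries did not overlap between advanced and control livers in either diet. Zfp593, a ribosome biogenesis factor, was higher in FPC advanced livers (0.52 (SE 0.13, adjusted p = 0.00101)) and not called in CDAHFD advanced livers (0.18). Zfp638, a cofactor of fat cell formation and a recruiter of silencing to foreign DNA, was lower in CDAHFD advanced livers (-0.46 (SE 0.10, adjusted p = 4.98e-04)) and not called in FPC advanced livers (-0.19). Calls that hung on 1 library were Zfp346 (FPC, 0.23, lost without FPC control 1 or 2 or FPC advanced 1 or 2), Zfp207 (FPC, 0.29, lost without FPC control 4 or FPC advanced 1) and Zfp622 (CDAHFD, -0.21, lost without CDAHFD control 3 or CDAHFD advanced 2). Zfp598, which marks stalled ribosomes, Zfp326 and Zfp106 passed in neither diet.

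Zfp36 had 219, 259 and 239 CPM in CDAHFD advanced livers, against 207, 204, 221 and 187 CPM in CDAHFD controls (0.22 (SE 0.071, adjusted p = 0.0112)). The groups overlapped, and without CDAHFD advanced 2 the call was lost (adjusted p = 0.0909). It had 236, 228 and 203 CPM in FPC advanced livers, against 224, 197, 245 and 219 CPM in FPC controls (0.0038 (SE 0.073, adjusted p = 0.967)). Of 19 listed relatives of Zfp36 and genes of the deadenylation machinery it recruits, 17 were measured, and 5 were higher and 4 lower in FPC advanced livers (30.7% and 30.5% of all genes) and 6 higher and 4 lower in CDAHFD advanced livers (28.5% and 30% of all genes). The medians of the list were -0.021 in FPC and 0.047 in CDAHFD advanced livers. The genes called lower are not named here. The deadenylase gene Cnot7 changed most, by 1.06 (SE 0.14, adjusted p = 8.80e-07) in FPC and 1.35 (SE 0.13, adjusted p = 6.34e-09) in CDAHFD advanced livers. The subunit gene Cnot10 changed by 0.42 and 0.46. Zfp36l1 was called in CDAHFD advanced livers (0.19) and not in FPC advanced livers (0.12), and Zfp36l2 in neither.

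Members with known roles in fat and energy metabolism were split in FPC advanced livers, with 4 higher and 3 lower of 8 measured of 10 listed, and 1 was higher and 4 lower in CDAHFD advanced livers. The shares over all genes were 30.7% and 30.5% in FPC and 28.5% and 30% in CDAHFD advanced livers, and the medians of the list were 0.012 and -0.12. Zfp467, which favours fat over bone formation in stromal cells, changed by -0.39 (SE 0.078, adjusted p = 1.42e-04) in FPC and -0.31 (SE 0.077, adjusted p = 0.00151) in CDAHFD advanced livers. Zfp217 was higher in FPC advanced livers (0.34 (SE 0.064, adjusted p = 6.94e-05)) and did not pass in CDAHFD advanced livers (0.13). Zfp746 (PARIS), a repressor of the gene of PGC-1alpha, changed by -0.26 and -0.23, the second lost without CDAHFD advanced 1 (adjusted p = 0.0724) and both lost with scale factors from all peaks (adjusted p = 0.0640 and 0.0588). Zfp407 changed by -0.21 and -0.22, both called, but the FPC call was lost with scale factors from all peaks (adjusted p = 0.128), with peaks within 10 kb (adjusted p = 0.423) and under cyclic loess in limma (adjusted p = 0.0709). Zfp30 changed by 0.59 and 0.40, the second lost without CDAHFD control 1 or 3 or CDAHFD advanced 1 or 2. Zfp423, which commits cells to the fat lineage, and Zfp516, a driver of brown fat genes, had FPC calls of 0.27 and 0.21 that were each lost on leaving out some single libraries: FPC control 3 or 4 or FPC advanced 1 or 3 for Zfp423, and FPC control 1 or 3 or FPC advanced 3 for Zfp516.

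Of 14 widely expressed promoter-binding members listed, 11 were measured, and 6 were higher and 1 lower in FPC advanced livers, against 30.7% and 30.5% of all genes. There were 5 higher and 2 lower in CDAHFD advanced livers, against 28.5% and 30% of all genes, and the medians were 0.18 and 0.12. Zfp335, needed for neural progenitors and T cells, had 83.4, 91.0 and 78.6 CPM in FPC advanced livers, against 61.6, 51.4, 63.5 and 62.4 CPM in FPC controls (0.49 (SE 0.073, adjusted p = 3.68e-06)). Zfp335 had 86.5, 91.7 and 85.4 CPM in CDAHFD advanced livers, against 59.6, 60.6, 62.9 and 52.7 CPM in CDAHFD controls (0.57 (SE 0.069, adjusted p = 1.80e-07)). Its advanced and control libraries did not overlap in either diet. Zfp143, the mouse ortholog of the factor whose core motif was searched above, had 189.8, 205 and 196 CPM in CDAHFD advanced livers, against 145, 142, 143 and 150.2 CPM in CDAHFD controls (0.44 (SE 0.060, adjusted p = 1.12e-06)). It had 185, 187 and 167 CPM in FPC advanced livers, against 158, 140.1, 159 and 169 CPM in FPC controls (0.20 (SE 0.062, adjusted p = 0.00813)), with overlap, and the call was not made with peaks within 10 kb. Zfp219 (0.36 and 0.19), Zfp384 (0.35 and 0.25) and Zfp64 (0.37 and 0.29, the second lost without CDAHFD advanced 1) rose in both diets. Zfp148, a GC-box binder, changed by -0.80 (SE 0.13, adjusted p = 9.64e-06) in CDAHFD advanced livers and by -0.32 in FPC advanced livers, where the call was lost without any 1 of the 4 controls or without FPC advanced 2 or 3. Zfp24 was lower in CDAHFD advanced livers (-0.18, lost without CDAHFD control 3 or 4 or CDAHFD advanced 2 or 3), and Zfp740 was higher in FPC advanced livers (0.16).

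Among members with roles in epithelia, neurons and development, 12 of 15 listed were measured, and 3 were higher and 6 lower in FPC advanced livers (30.7% and 30.5% of all genes) and 4 higher and 7 lower in CDAHFD advanced livers (28.5% and 30% of all genes), with medians of -0.17 and -0.21. Zfp704 had 68.7, 78.9 and 84.1 CPM in FPC advanced livers, against 53.9, 50.4, 37.5 and 43.9 CPM in FPC controls (0.75 (SE 0.11, adjusted p = 2.02e-06)). It had 74.0, 88.0 and 79.2 CPM in CDAHFD advanced livers, against 46.1, 51.4, 45.4 and 43.3 CPM in CDAHFD controls (0.78 (SE 0.10, adjusted p = 3.99e-07)), with no overlap in either diet. Its largest change was in intron 1, 9318 bases from the start, at 2.99 (SE 0.30, adjusted p = 6.59e-09) in FPC and 2.94 (SE 0.28, adjusted p = 1.40e-09) in CDAHFD advanced livers. Zfp296 was higher in CDAHFD advanced livers (0.70 (SE 0.21, adjusted p = 0.00555)) and not called in FPC advanced livers (0.36). Zfp365 changed by -0.44 and -0.63, Zfp507 by -0.22 and -0.47, and Zfp322a by -0.32 and -0.23. Of these, the FPC calls of Zfp365 (lost without FPC control 1 or 2 or FPC advanced 3) and Zfp507 (without FPC control 1, 2 or 4 or FPC advanced 3) and the CDAHFD call of Zfp322a (without CDAHFD control 4 or CDAHFD advanced 2 or 3) hung on single libraries. With peaks within 10 kb only, Zfp507 changed by 0.14 in FPC advanced livers, with no call. Zfp703, an epithelial regulator, was lower in CDAHFD advanced livers (-0.18, lost without CDAHFD advanced 3), and Zfp706 passed in neither.

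Sums of distal peaks changed over 2-fold with a call in 23.5% of 136 members in FPC advanced livers, against 18.3% of all genes, and sums of promoter peaks in 3.79% of 290 members, against 6.91% of all genes. In CDAHFD advanced livers the shares were 20.6% of members and 19% of all genes for distal sums, and 2.07% and 6.36% for promoter sums. Distal peaks changed in the libraries in which cholangiocyte marker sums were high, and the part of such cells in them was not tested. Over single peaks, 289 of 819 (35.3%) were higher and 122 (14.9%) lower in FPC advanced livers, against 27.6% and 28% of all 68827 peaks, and 211 (25.8%) were higher and 155 (18.9%) lower in CDAHFD advanced livers, against 26.7% and 28.8%. A peak in intron 2 of 9 of Zfp608 had 25.3, 26.8 and 24.2 CPM in FPC advanced livers, against 3.88, 2.65, 2.19 and 2.53 CPM in FPC controls (3.19 (SE 0.17, adjusted p = 1.19e-13)). The peak had 28.4, 31.7 and 34.1 CPM in CDAHFD advanced livers, against 2.82, 3.59, 4.28 and 4.41 CPM in CDAHFD controls (3.05 (SE 0.14, adjusted p = 2.50e-15)). Peaks named here were chosen for a large change and for libraries that did not overlap. The sum over the 13 peaks of Zfp608 changed by 0.19 in FPC advanced livers, a call lost without FPC advanced 3. In CDAHFD advanced livers that sum changed by 0.12, not called. Near Zfp750, 3 peaks 24120 to 25572 bases upstream lie inside intron 14 of 38 of Tbcd, a tubulin folding gene, and the middle one (chr11:121544020-121544220) had 22.6, 31.3 and 21.3 CPM in FPC advanced livers, against 6.78, 5.83, 6.39 and 5.31 CPM in FPC controls (2.04 (SE 0.19, adjusted p = 1.33e-09)). That peak had 22.8, 25.03 and 25.9 CPM in CDAHFD advanced livers, against 6.50, 4.19, 5.94 and 4.07 CPM in CDAHFD controls (2.22 (SE 0.17, adjusted p = 4.64e-11)). With peaks within 10 kb only, the gene sum of Zfp750 changed by 0.16 in FPC and -0.056 in CDAHFD advanced livers, neither called. An intergenic peak 8026 bases upstream of Zfp184 changed by 2.47 (SE 0.51, adjusted p = 1.87e-04) and 2.45 (SE 0.44, adjusted p = 3.48e-05), and one 16197 bases upstream of Zfp324 by 1.73 (SE 0.18, adjusted p = 1.76e-08) and 1.38 (SE 0.16, adjusted p = 6.26e-08) in FPC and CDAHFD advanced livers. A peak given to Zfp526 that rose in CDAHFD advanced livers (1.71 (SE 0.31, adjusted p = 3.38e-05)) is annotated as the promoter of Dedd2.

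Other peaks of members were lost. A peak in intron 5 of 8 of Zfp410, an activator of the NuRD gene Chd4, had 5.40, 5.70 and 4.14 CPM in FPC advanced livers, against 20.8, 19.1, 19.2 and 17.7 CPM in FPC controls (-1.91 (SE 0.23, adjusted p = 1.28e-07)). That peak had 4.17, 7.34 and 6.97 CPM in CDAHFD advanced livers, against 14.1, 13.6, 15.0 and 17.3 CPM in CDAHFD controls (-1.31 (SE 0.22, adjusted p = 1.14e-05)). No advanced library reached its controls, which the choice of named peaks required. A peak 18607 bases upstream of Zfp648 changed by -1.24 (SE 0.19, adjusted p = 4.77e-06) in FPC and -1.52 (SE 0.18, adjusted p = 5.81e-08) in CDAHFD advanced livers. The peak 774 bases upstream of a Zfp385b start changed by -1.22 (SE 0.18, adjusted p = 3.22e-06) and -0.97 (SE 0.18, adjusted p = 4.47e-05). Peaks in intron 2 of 7 of Zfp385a (-1.47 (SE 0.17, adjusted p = 4.79e-08)) and intron 3 of 29 of Zfp236 (-1.39 (SE 0.22, adjusted p = 7.48e-06)) were among the deepest losses in CDAHFD advanced livers.

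Members' peaks inside repeats closed more often than they opened. There were 89, of which 22 (24.7%) were higher and 35 (39.3%) lower in FPC advanced livers, and 21 (23.6%) higher and 35 (39.3%) lower in CDAHFD advanced livers. The background lay near these shares: of all 7322 peaks in repeats, 18.6% were higher and 37.8% lower in FPC advanced livers, and 21.9% and 36.9% in CDAHFD advanced livers. Long terminal repeats of endogenous retroviruses, which KRAB proteins are known to bind, held 40 member peaks, 10 of them higher and 17 lower in FPC advanced livers (18.9% and 39.9% of all 2614 such peaks) and 10 higher and 15 lower in CDAHFD advanced livers (21.9% and 39.1%). The share of peaks in such repeats was 4.88% for members and 4.6% for all genes. Of the 730 member peaks outside repeats, 267 (36.6%) were higher and 87 (11.9%) lower in FPC advanced livers, against 30.8% and 23.3% of all 49465 such peaks, and 190 (26%) were higher and 120 (16.4%) lower in CDAHFD advanced livers, against 28.6% and 24.3%.

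Along the genome, members formed 167 runs when peaks within 250 kb were joined, 126 of them a single gene and 15 of 5 or more genes with 124 members. The counts that follow stand beside 30.7% higher and 30.5% lower of all genes in FPC advanced livers, and 28.5% and 30% in CDAHFD advanced livers. Chromosome 7 held 81 members, chromosome 17 held 34, chromosome 13 held 33 and chromosome 8 held 23. On chromosome 7, 34 members (42%) were higher and 9 (11.1%) lower in FPC advanced livers, and 20 higher and 13 lower in CDAHFD advanced livers. Of the 230 members elsewhere, 32.6% were higher and 19.1% lower in FPC advanced livers. Members in runs of 5 or more were higher in 29% and lower in 12.9% in FPC advanced livers, and those alone in 39.7% and 20.6%. The largest run, on chromosome 13 from 67060257 to 67814291, held 22 members, among them Zfp708, Zfp429, Zfp874a, Zfp874b, Zfp729a and Zfp729b. In it 3 were higher and 6 lower in FPC advanced livers (median -0.17), and 2 higher and 9 lower in CDAHFD advanced livers (median -0.22). The next, on chromosome 7 from 29767154 to 30169904, held 15 members, with 9 higher and none lower in FPC advanced livers (median 0.37) and 4 higher and 1 lower in CDAHFD advanced livers (median 0.021). Within it Zfp82 changed by 1.26 and 0.90, Zfp382 by 1.07 and 0.60, and Zfp84 by -0.034 and -0.24 in the FPC and CDAHFD comparisons. A run of 11 on chromosome 17 from 21423098 to 21962856 had 3 higher and 1 lower in FPC, and none higher and 2 lower in CDAHFD advanced livers. A run of 10 on chromosome 7 from 24081720 to 24593958 had 3 higher and none lower in FPC, and none higher and 2 lower in CDAHFD advanced livers. Members of 1 run are related by sequence, share neighbours and may share reads.

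A run of 6 on chromosome 11 from 50827681 to 51061275, chosen after its values were seen, closed at every member in CDAHFD advanced livers. All 6 were lower there, with log2 fold changes of -0.36 for Zfp354c, -0.40 for Zfp879, -0.66 for Zfp454, -0.26 for Zfp2, -0.52 for Zfp354b and -0.70 for Zfp354a. In FPC advanced livers 1 was lower, Zfp354a (-0.68 (SE 0.17, adjusted p = 0.00138)). Zfp354a had 11.4, 10.8 and 12.4 CPM in CDAHFD advanced livers against 17.9, 17.5, 21.0 and 18.3 CPM in CDAHFD controls, and 16.0, 11.8 and 12.6 CPM in FPC advanced livers against 25.9, 19.7, 22.1 and 17.9 CPM in FPC controls, with no overlap in either diet. The test of the difference between diets called none of the 6.

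**Figure D5:**
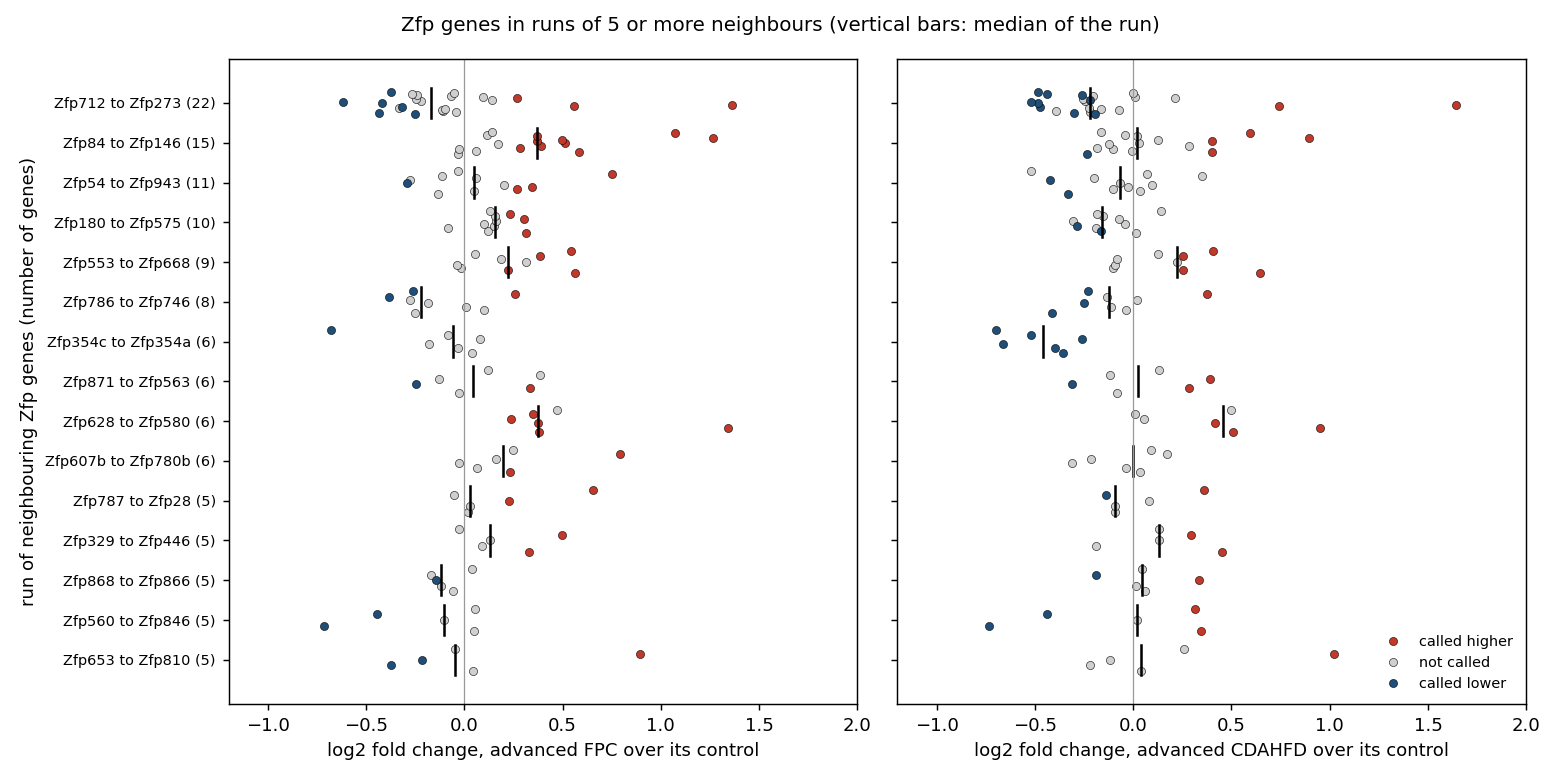
Log2 fold change of each member (points, x axes) in the 15 runs of 5 or more neighbouring Zfp genes (rows, named by their first and last gene with the number of genes), in FPC advanced (left) and CDAHFD advanced (right) livers against their controls, with the median of each run as a bar. The run of 15, Zfp84 to Zfp146, has a median of 0.37 in FPC and 0.021 in CDAHFD, and the run of 6 from Zfp354c to Zfp354a lies below 0 for every member in CDAHFD.

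Both sets of controls ate the low fat diet, for 20 weeks in FPC controls and 7 weeks in CDAHFD controls, and any other difference between the cohorts cannot be told apart from time. Of the members, 8 (2.57%) were higher and 15 (4.82%) lower in FPC controls than in CDAHFD controls, against 3.67% and 2.35% of all genes. The median log2 difference was -0.057 over members and -0.0068 over all genes. Fitting the control groups on their own left 2 and 2, with medians of -0.055 and -0.0068. That fit took the spread from the control libraries only, so its smaller counts are no result about the members. Zfp869 (0.41 (SE 0.051, adjusted p = 3.08e-05)), Zfp810 (0.74 (SE 0.12, adjusted p = 5.52e-04)), Zfp467 (0.30) and Zfp846 (0.31) were higher in FPC controls. Zfp12 (-0.42 (SE 0.084, adjusted p = 0.00375)), Zfp180 (-0.26), Zfp112 (-0.26) and Zfp444 (-0.20) were lower. Zfp810 had 31.4, 34.6, 27.8 and 37.6 CPM in FPC controls against 21.8, 19.3, 16.8 and 20.7 CPM in CDAHFD controls, with no overlap. Zfp869, Zfp12 and Zfp180, which differed between the controls, also differed between the diets in the advanced change, and those tests share the control libraries.

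The distance rule left out 4 genes whose peaks all lay farther than 50 kb from a start: Zfp804a at 50427 bases, Zfp985 at 109992, Zfp808 at 114053 and Zfp521 at 300942. Among peaks of members, the farthest inside the rule lay 49907 bases from Zfp608, and the nearest outside it lay 50410 bases from Zfp648. Of the 311 members, 308 were annotated as protein-coding, 2 as pseudogenes and 1 as a non-coding RNA gene.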

How the data were processed

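ATAC-seq counts per peak were deposited for 22 libraries in 6 groups, with the nearest gene and the distance to its start. Per the submitters' processing notes, the tools were BWA 0.7.5a-r405, SAMtools, HOMER and DESeq2 and the build mm10, with no roles given. The values deposited by the authors are expected counts, not normalized, in steps of 0.5 (47.8% of values are not whole). Here they were rounded per peak, kept within 50 kb of a start and summed per gene, then scaled by TMM (factors 0.975 to 1.03), and CPM are per 1e+06 scaled counts. Promoter sums use peaks within 1 kb. Tests were edgeR 4.0.16 (R 4.3.3) quasi-likelihood tests on all 22 libraries with 1 mean per group, adjusted over all features by Benjamini-Hochberg, called under 0.05. SE was derived from the fold change and F (log2 change over root F). The method was tested on simulated data with known changes in FPC advanced libraries. For gene sums it recovered 70.1% of 1.5-fold and 92.5% of 2-fold changes. For single peaks it recovered 23.9% and 68.7%, so a missing call does not show that nothing changed. Precision is limited by 3 or 4 mice per group: the median SE of a member was 0.103 in the FPC and 0.096 in the CDAHFD comparison.

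Members and gene lists were chosen with earlier results of these data known. Named in the text are, per diet and direction, the 12 called members with the smallest p among those without overlapping libraries. The listed members, the 4 per direction for the other comparisons, the 4 members with the most peaks or signal, and the 4 largest runs are also named. So are, per diet, the 4 gained and 4 lost peaks with the largest change. These peaks were called, had no overlapping libraries, and had above-median mean abundance over all libraries, advanced ones included. Non-overlap of members and peaks named in this way was thus set by the choice. Others named complete a count or have their promoter printed (per direction, the 3 with the smallest adjusted p of promoter sums called in both diets, with a peak in a window wholly outside the annotated gene). Alternatives were other scalings, rounding, filters, distances, DESeq2 1.42.0, limma 3.58.1 with cyclic loess, fits of the compared groups and leaving out each library. Replicates of a group differed by more than sampling noise (chi-square per degree of freedom 1.45 to 5.1), and no batch was labelled. All 311 members matched RefSeq gene IDs. Promoter sequences are from RefSeq, build GRCm38.p6, the build of mm10. No protein table was used, so KRAB domains were not assigned. The deposited normalized table was not used here.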

Additional observations from a re-analysis of the deposited data

Results flagged for a closer look

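In 360 sets of 4 libraries of named members, 16 (4.44%) had 1 library whose gap to the nearest other passed the 95% critical value of Dixon's test, where chance gives about 1 in 20. Above the other 3 stood Zfp202 in CDAHFD mild 3 (42.6 CPM), Zfp24 in CDAHFD control 4 (105.5 CPM), Zfp37 in CDAHFD control 1 (7.112 CPM) and in CDAHFD mild 3 (7.442 CPM), Zfp568 in FPC control 4 (67.81 CPM), Zfp579 in FPC mild 4 (10.27 CPM), Zfp64 in FPC control 2 (28.54 CPM), Zfp746 in CDAHFD mild 4 (93.54 CPM) and Zfp956 in FPC mild 4 (102.5 CPM). Below the other 3 stood Zfp24 in FPC mild 1 (79.07 CPM), Zfp292 in CDAHFD control 4 (68.39 CPM), Zfp335 in FPC control 2 (51.37 CPM), Zfp524 in CDAHFD control 1 (52.15 CPM), Zfp773 in CDAHFD mild 4 (9.144 CPM), Zfp869 in CDAHFD control 2 (95.03 CPM) and Zfp874a in CDAHFD control 3 (43.59 CPM).

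The change against control differed between diets for 8 named members in the interaction test of edgeR, 7 at the advanced and 4 at the mild stage, given as the CDAHFD change minus the FPC change. For advanced livers these were Zfp12 (-0.60, adjusted p = 0.00529), Zfp180 (-0.30, adjusted p = 0.0336), Zfp37 (-1.49, adjusted p = 0.0128), Zfp512 (-0.56, adjusted p = 0.0230), Zfp770 (0.84, adjusted p = 0.0412), Zfp773 (-0.72, adjusted p = 0.0259) and Zfp869 (0.48, adjusted p = 0.000764). For mild livers they were Zfp180 (-0.32, adjusted p = 0.0158), Zfp507 (-0.44, adjusted p = 0.0297), Zfp512 (-0.46, adjusted p = 0.0383) and Zfp869 (0.43, adjusted p = 0.000800).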

How the results depend on the processing

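The counts of members called in the advanced groups kept within 1.5 times of their values under every alternative run, except that scale factors from all peaks left 31 lower (of 53) in FPC and 46 lower (of 75) in CDAHFD advanced livers. That scaling, upper-quartile scaling and rounding after summing were chosen after seeing the data. Under scaling from all peaks the higher and lower calls were 138 and 31 in FPC advanced, 93 and 46 in CDAHFD advanced, 67 and 27 in FPC mild, 65 and 14 in FPC advanced against mild, 19 and 12 in CDAHFD advanced against mild, and 1 and 9 in the advanced diet difference. This scaling shifted all genes too, to a median of 0.10 in FPC advanced livers, where the median of the members was 0.18. In CDAHFD advanced livers their higher and lower calls went from 4466 and 4707 to 5248 and 3781. Upper-quartile scaling gave 68 and 28 in FPC mild livers, 10 lower in the advanced and 5 lower in the mild diet difference. With peaks within 10 kb, FPC mild livers had 25 lower and FPC advanced against mild 29 higher. The advanced diet difference had 1 higher with a mean of 50 counts or more and with DESeq2, which called 3 lower, and cyclic loess called 2 higher and 5 lower in the mild one. Fits of both control groups alone called 2 higher and 2 lower, with medians of -0.055 over members and -0.0068 over all genes. DESeq2 called 95 higher and 45 lower in FPC advanced and 75 and 60 in CDAHFD advanced livers. Its medians were 0.081 over members and 0.0045 over all genes in FPC, and -0.0066 and -0.0026 in CDAHFD advanced livers. Of all genes, DESeq2 called 4411 higher and 4319 lower in CDAHFD advanced livers.

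Turned in sign were Zfp507 in FPC advanced livers (0.14 within 10 kb), Zfp750 in CDAHFD advanced livers (-0.056 within 10 kb), and Zfp395 (0.17) and Zfp78 (0.14) in FPC advanced livers under cyclic loess. The 10 kb limit drops the distal peaks that carried the first 2, and for the others the cause was not tested. Other calls of named members lost under scaling from all peaks were Zfp148, Zfp365, Zfp407, Zfp507, Zfp746, Zfp809 and Zfp869 in FPC, and Zfp24, Zfp78, Zfp112, Zfp322a, Zfp445, Zfp622, Zfp703 and Zfp746 in CDAHFD advanced livers. Those lost within 10 kb were Zfp26, Zfp143, Zfp346, Zfp407, Zfp410, Zfp516, Zfp608, Zfp750 and Zfp825 in FPC, and Zfp26, Zfp236, Zfp266, Zfp324, Zfp512 and Zfp825 in CDAHFD advanced livers.

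Leaving out 1 library at a time gave 92 to 106 higher and 40 to 50 lower members in FPC advanced livers and 66 to 78 higher and 53 to 70 lower in CDAHFD advanced livers. FPC advanced against mild had 25 to 40 higher, 25 without FPC advanced 2. CDAHFD advanced against mild had 5 to 14 higher (7 and 5 without advanced 1 and 2, 8, 6 and 8 without mild 1, 2 and 4) and 6 to 15 lower (6 and 9 without advanced 2 and 3, 10 without mild 1). FPC against CDAHFD control livers had 3 to 6 higher (5 and 4 without FPC 2 and 3, 3, 4 and 5 without CDAHFD 2, 3 and 4) and 6 to 13 lower (6 and 8 without FPC 3 and 4, 8 without CDAHFD 3). The advanced diet difference had 1 to 2 higher (1 in 9 of the settings) and 3 to 8 lower (3 without control 3 of either diet). The mild one had 1 to 3 higher and 1 to 6 lower. No paired analysis was possible because replicate numbers only name libraries, and no mouse gave more than 1. Totals of 3790000 to 9330000 counts limit members with 1 weak peak most, such as Zfp831.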
